A study of Mus musculus with 18 samples.

Results

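Genes of protein folding and of the early secretory pathway were followed in 3 exocrine glands of male mice given testosterone or placebo. The genes were chosen by symbol: disulfide isomerases, heat shock proteins and DnaJ co-chaperones, chaperonin subunits, prolyl isomerases, the translocon with the signal recognition and signal peptidase complexes, the COPI and COPII coats, and regulators of the ER stress response. The symbols were matched by 120 probes of 116 genes, out of 8841 genes named by the 10500 probes of the array. Of these 120 probes, 108 probes of 104 genes were tested.

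Orchiectomised male BALB/c mice, whose main source of androgen had been removed, carried a testosterone pellet or a placebo pellet for 21 days. The 6 groups were lacrimal gland with testosterone, lacrimal gland with placebo, meibomian gland with testosterone, meibomian gland with placebo, submandibular gland with testosterone and submandibular gland with placebo. Each group had 3 pools, A, B and C, of 10 glands from 5 animals, and each pool was measured on a single 1-colour array (18 arrays). Elsewhere the labels speak of 4 animals per sex and experiment. They do not state the age of the mice, and do not say whether pools of different glands came from the same mice. Tear fluid and its proteins come from the lacrimal gland, the oily tear layer from the meibomian glands of the eyelid, and saliva from the submandibular gland, whose granular tubules depend on androgen. The placebo mice were castrated too, so each comparison is replacement of testosterone against androgen lack, and not against an intact male.

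Proteins bound for secretion enter the endoplasmic reticulum (ER) through the Sec61 channel, lose their signal peptide, gain glycans and disulfide bonds, fold with the help of Hsp70- and Hsp90-class chaperones and lectin chaperones, and leave in COPII vesicles, while COPI vesicles return escaped residents. When unfolded protein builds up, the transcription factors Atf6 (not analysed here), Xbp1 and Atf4 act on chaperone and stress genes, and Ddit3 is induced under prolonged stress. The cytosol has a separate set of chaperones, with Hsp70, Hsp90 and small heat shock proteins and the ring-shaped chaperonin. Serous acinar cells of tear and salivary glands are packed with rough ER, whereas sebocytes of the meibomian gland store lipid.

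Chaperone genes of the ER are known to share a promoter motif, the ER stress element, read as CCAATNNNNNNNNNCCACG. Promoter windows of 250 bases before to 50 bases after the start, taken from RefSeq on build GRCm38.p6, were held for 95 of the 116 genes (114 windows). On either strand, the motif occurred in 7 of those 114 windows (6.14%), against 39 of all 32851 windows (0.119%). The 7 genes are shown because most are central ER chaperones and because their array values, given below, differed. Capitals mark the fixed bases of the motif, each match being written 5′ to 3′ on the strand that holds it.
Hspa5: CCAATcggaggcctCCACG
Hsp90b1, first match: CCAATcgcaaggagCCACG
Hsp90b1, second match: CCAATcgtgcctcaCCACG
Dnajc3: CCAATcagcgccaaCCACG
Calr: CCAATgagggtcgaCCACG
Canx: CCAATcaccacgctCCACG
Pdia6: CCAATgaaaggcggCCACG
Ero1b: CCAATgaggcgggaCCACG
All 8 matches lay before the start of the gene, at position 186 of the window in Hspa5 and at positions 39 and 144 in Hsp90b1, counted from 1 at the upstream end. The 250 bases before the start are shown for Hspa5 at chr2:34771840-34772089, plus strand, and for Hsp90b1 at chr10:86705445-86705694, minus strand, with the same capitals. The second match of Hsp90b1 lies on the opposite strand and appears there as its reverse complement.
Hspa5: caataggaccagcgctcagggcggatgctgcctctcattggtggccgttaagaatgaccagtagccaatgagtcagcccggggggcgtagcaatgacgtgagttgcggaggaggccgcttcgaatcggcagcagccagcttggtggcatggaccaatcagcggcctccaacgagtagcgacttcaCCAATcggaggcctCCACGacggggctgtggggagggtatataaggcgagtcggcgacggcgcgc
Hsp90b1: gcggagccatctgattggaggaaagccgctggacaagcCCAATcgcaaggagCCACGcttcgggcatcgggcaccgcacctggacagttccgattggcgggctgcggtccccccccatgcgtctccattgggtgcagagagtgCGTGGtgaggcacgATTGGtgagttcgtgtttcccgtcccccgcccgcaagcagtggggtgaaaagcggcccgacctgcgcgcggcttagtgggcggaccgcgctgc
A heat shock element, searched on either strand as GAA, 2 free bases, TTC, 2 free bases and GAA, occurred in 6 of the 114 windows (5.26%) and in 198 of all windows (0.603%). It was found for Dnajb6, Hspd1, Hspe1 and Hsph1. Hspd1 and Hspe1, the mitochondrial chaperonin and its partner, lie head to head, and their windows hold the same 2 matches.
Hspe1 and Hspd1, first match: GAAggTTCtaGAA
Hspe1 and Hspd1, second match: GAAccTTCcgGAA
An androgen response element, searched as AGAACA, 3 free bases and TGTTC, occurred in 0 of the 114 windows and in 16 of all windows (0.0487%). A match is a description of these windows only.

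Values are intensities on a linear scale, with an array median between 0.929 and 0.952, and changes are log2 differences of intensity plus an offset of 0.174, testosterone minus placebo, with their standard error. The offset makes changes of dim probes smaller. A probe was called when its limma p-value, adjusted over all 7463 tested probes, was below 0.05. The tested members were bright, with a median of mean intensity of 12.5, against 2.35 over all tested probes. Of the 12 untested probes, 10 were dim (Calr3, Dnajb5, Dnajc22, Dnajc24, Dnajc5b, Dnajc6, Hspa1l, Hspb3, Hspb7 and Sec23a), and Ppia and Sec31a lacked values on 11 and 2 arrays.

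The sums of sebocyte and submandibular markers matched the gland labels, though not every gene in them did. The sum of 5 sebocyte markers was 246 to 378 on the meibomian arrays and at most 29.6 on the other arrays. The sum of 4 submandibular markers was 694 to 903 on the submandibular arrays and at most 42.4 elsewhere. Against its label, the sebocyte marker Mc5r was brighter in the lacrimal (placebo mean 3.4) than in the meibomian gland (0.488). Bhlha15, of the submandibular list, was brighter in the lacrimal (placebo mean 13.3) than in the submandibular gland (7.75). Of the lacrimal markers, Ltf and Dmbt1 were brighter in the lacrimal than in the submandibular gland, whereas Car6 and Lpo were bright in both. The sum of 6 lacrimal markers was 1202 to 1251 in lacrimal and 650 to 726 in submandibular placebo pools. With testosterone the sums of these glands overlapped (658 to 871 and 578 to 798). The brightest probe of an array reached 135 to 219 in the meibomian gland, against 597 to 1042 in the lacrimal and 636 to 743 in the submandibular gland. Skeletal muscle markers summed to 168 to 215 on the meibomian arrays and at most 11 elsewhere.

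Single pools stood apart for some members of the submandibular gland. Sec61b, a subunit of the translocation channel, had 0.329, 38.5 and 35 in testosterone pools A, B and C, against 38.6, 35 and 35.8 in placebo pools. Sec11c, a signal peptidase subunit, had 1.15, 46.6 and 56.3, against 49.2, 76.9 and 69.1. Ssr1, of the translocon-associated complex, had 1.33, 18 and 18.3, against 17.6, 16.6 and 16.2. In each of these, testosterone pool A lay more than 8-fold below the other pools of its group, and Atf4 showed the same with 2.12 against 92 and 84.1. Such low single values occurred for 75 tested probes in testosterone pool A and 79 in testosterone pool C of this gland, while the placebo pools had 21 (A), 2 (B) and 39 (C). Hspa9, the mitochondrial Hsp70, was low in placebo pool C (0.276, against 26.1 and 24.7 in placebo pools A and B). Hspa1a and Hspa1b, the stress-inducible Hsp70 genes, were high in testosterone pool B: 35.5 for Hspa1a, against 3.69 and 4.84 in testosterone pools A and C, and 175 for Hspa1b, against 26.7 and 39.2. These near-identical genes may share signal, so their values are uncertain. None of these 7 genes was called in the submandibular gland.

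**Figure D1:**
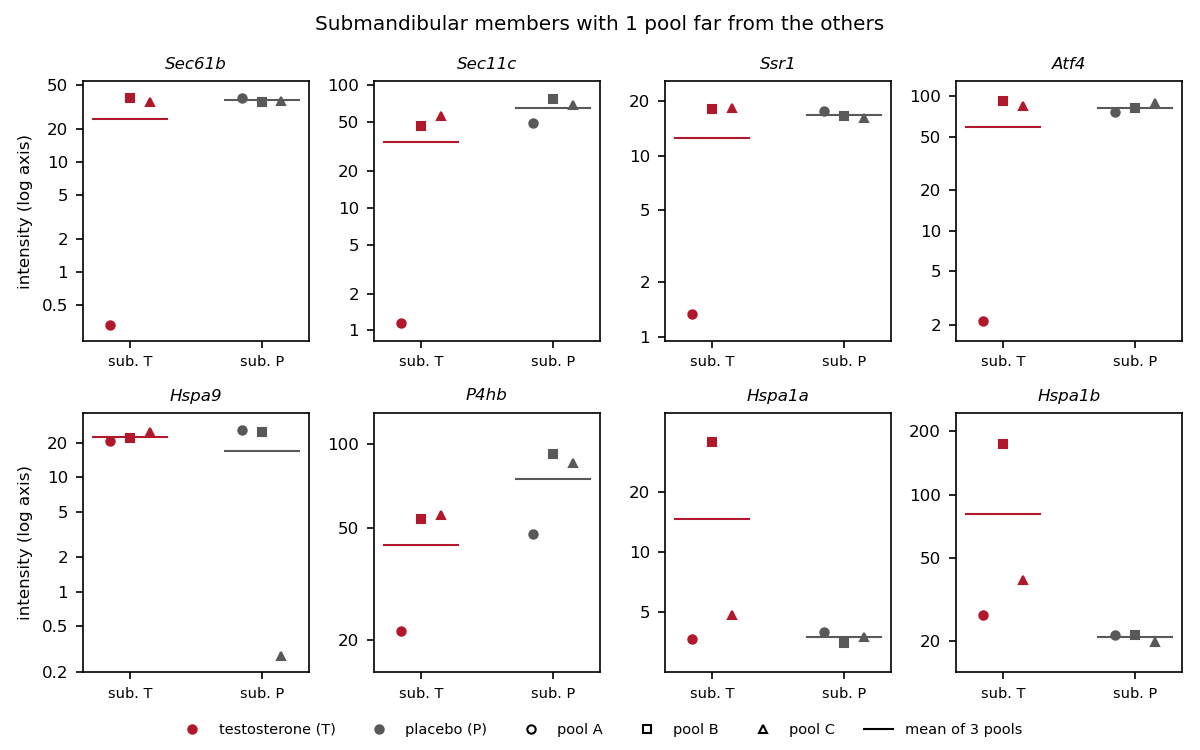
Intensity of 8 members in the submandibular gland, on log axes, with testosterone pools (T) left of placebo pools (P), a symbol for each pool and a line at the mean of 3 pools. Testosterone pool A lies far below the other pools for Sec61b, Sec11c, Ssr1 and Atf4 and is also lowest for P4hb (21.5), placebo pool C is far below for Hspa9, and testosterone pool B is far above for Hspa1a and Hspa1b.

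In the submandibular gland, 24 of the 108 tested members were called, of which 22 were higher and 2 lower with testosterone. Calls over all tested probes were 13.8%, with 8.54% higher and 5.25% lower, whereas 20.4% of the members were higher and 1.85% lower. The median change of the members was 0.16, against 0.01 over all tested probes. All testosterone pools lay above all placebo pools for 26.9% of the members, against 16.4% of all tested probes. They lay below for 3.7%, against 12.3%. Among the 3731 brighter tested probes, 22.6% of 84 members were called higher, against 11% of all 3731. Of the 57 tested probes with ER and early secretory roles, 16 were called higher and 1 lower. Of the 44 probes of cytosolic and mitochondrial chaperones, 5 were called higher and 1 lower. The calls depended on the pooled estimate of spread: with the 6 submandibular arrays fitted alone, 8 members were called higher and 1 lower, against 3.98% and 1.5% of all probes there. With quantile normalization over all arrays the split was 21 higher and 5 lower, against 8.44% and 6.65% of all tested probes. Within glands it was 18 and 5, against 8.13% and 6.49%. Without placebo pool B, or without testosterone pool C, 14 members were called higher, against 6.7% and 6.18% of all tested probes. Each pool is bulk tissue, in which fewer cells of a type and less RNA per cell cannot be told apart.

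**Figure D2:**
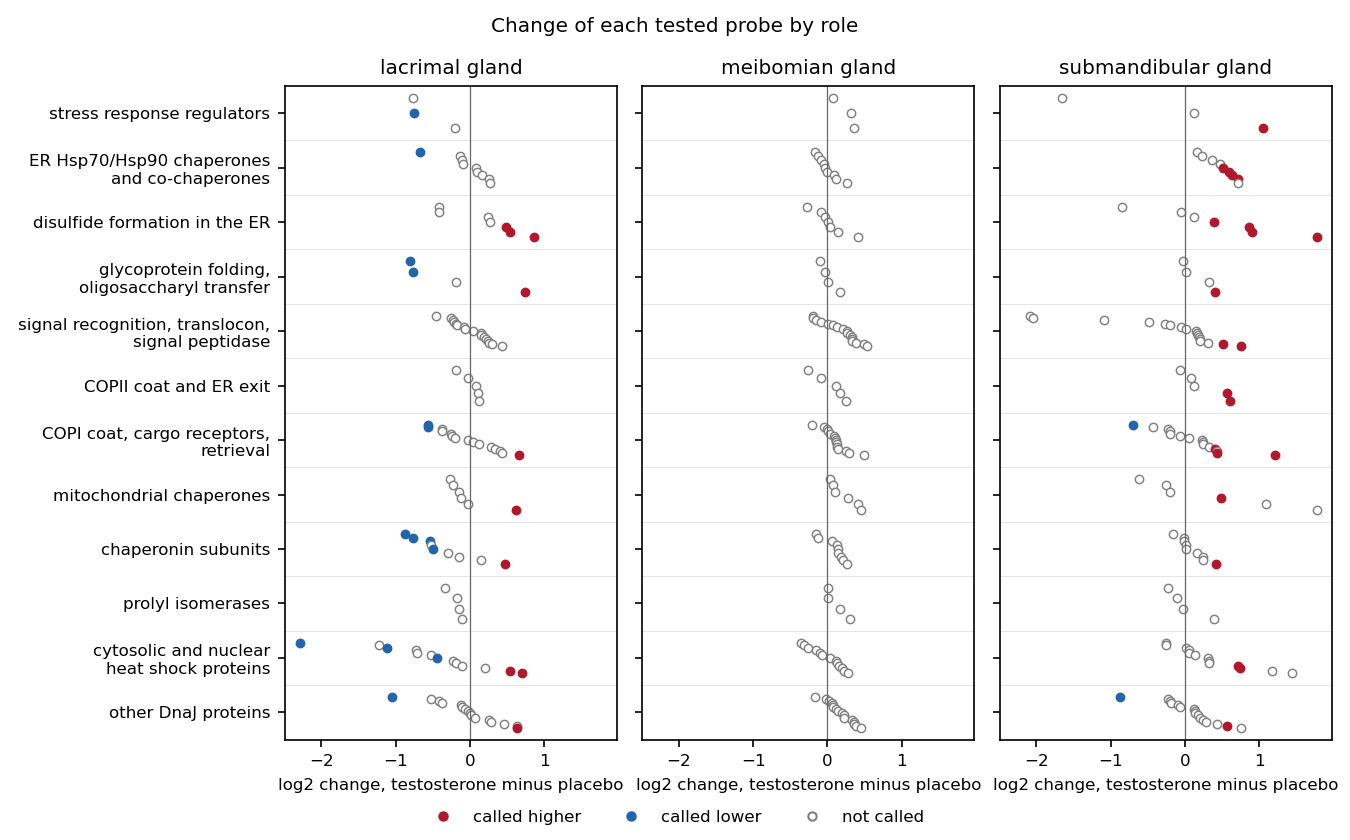
Log2 change, testosterone minus placebo, of each of the 108 tested probes, by role (rows) and gland (panels), with filled red points called higher, filled blue points called lower and open points not called. Called points lie mostly to the right in the submandibular gland (22 of 24), on both sides in the lacrimal gland (10 and 14), and none is filled in the meibomian gland.

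Disulfide formation held the largest called rise. Ero1a, the oxidase that recharges protein disulfide isomerase, had 8.8, 5.91 and 9.09 in submandibular testosterone pools A, B and C, against 2.3, 1.93 and 2.22 in placebo pools. The lowest testosterone pool was above the highest placebo pool, and the change was 1.78 ± 0.15 (adjusted p = 5.20e-07). Pdia4, a disulfide isomerase of the ER, had 8.08, 7.95 and 10.4 with testosterone, against 4.65, 4.27 and 4.96 with placebo. The groups did not overlap, and the change was 0.90 ± 0.13 (adjusted p = 2.47e-04). Pdia5 rose by 0.87 ± 0.15, and Pdia3, the isomerase that works with the lectin chaperones on glycoproteins, by 0.39 ± 0.11. The call of Pdia5 ended when the gland was fitted alone (adjusted p = 0.0662), and that of Pdia3 ended there too (0.111) and without placebo pool B or C or testosterone pool B or C (up to 0.0928). P4hb, the main disulfide isomerase, was not called at -0.85 ± 0.29 (adjusted p = 0.0657), with pool A low in both groups (21.5 with testosterone and 47.9 with placebo). It was called lower with the pool letter as a block (0.00292), with quantile normalization over all arrays (0.0419) or within glands (0.0441), and with array weights (0.0236). It was also called lower without placebo pool A (0.0154), testosterone pool B (0.0373) or testosterone pool C (0.0302). Pdia6 was not called at -0.05 ± 0.37, with testosterone pool C at 3.03 beside 12 and 12.4, and Ero1b was not called at 0.13 ± 0.20.

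All 9 probes of the ER Hsp70 and Hsp90 chaperones and their co-chaperones had a positive change in the submandibular gland, with a median of 0.51, and 4 were called. Dnajc1 entered with both a brighter and a dimmer probe. Among all tested members 73 of 108 changes were positive. Over all tested probes the median change was 0.01, and 8.54% were called higher. Hsp90b1, the Hsp90 of the ER, had 93.9, 90 and 115 with testosterone, against 63.9, 61.9 and 64.2 with placebo. All testosterone pools were above all placebo pools (change 0.64 ± 0.15, adjusted p = 0.00803). Hspa5, the central Hsp70 of the ER, had 36.4, 39.1 and 24.7, against 27.8, 23.7 and 24.7. Its groups overlapped through testosterone pool C, and it was not called (0.37 ± 0.17, adjusted p = 0.166). Without that pool it was called, with a change of 0.57 (adjusted p = 0.0245). The Hspa5 co-chaperone Dnajb9, which is induced by ER stress, had 4.88, 4.26 and 6.28, against 3.02, 3.14 and 2.9, without overlap (0.72 ± 0.15, adjusted p = 0.0051). Its call ended when the gland was fitted alone (0.0591). Dnajc3 and Dnajb11, further ER co-chaperones, rose by 0.60 ± 0.17 and 0.51 ± 0.13. The call of Dnajc3 ended without placebo pool A, testosterone pool A or testosterone pool C (adjusted p up to 0.096), and that of Dnajb11 without testosterone pool C (0.0506), and neither was called with the gland fitted alone (0.102 and 0.14). Hyou1, a large Hsp70-like chaperone of the ER, was not called (0.72 ± 0.28, adjusted p = 0.102), although its groups did not overlap. It was called without lacrimal testosterone pool A (0.0353) and with the pool letter as a block (0.0221). Of the 7 genes with an ER stress element in the window, Calr, Dnajc3 and Hsp90b1 were called higher in this gland, and Canx, Ero1b, Hspa5 and Pdia6 were not called. In the lacrimal gland Calr was called higher, Canx lower at both probes, and Dnajc3, Ero1b, Hsp90b1, Hspa5 and Pdia6 were not called. None was called in the meibomian gland.

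Among the regulators, Ddit3, a transcription factor of prolonged ER stress, had 3.13, 3.38 and 3.46 in submandibular testosterone pools, against 1.54, 1.32 and 1.65 in placebo pools. The groups were well apart, and Ddit3 rose by 1.06 ± 0.16 (adjusted p = 3.15e-04). Xbp1, a transcription factor that expands the ER, was not called (0.12 ± 0.23, adjusted p = 0.791), with 23.2, 30.4 and 27.8 against 34.5, 30.6 and 14.5. Splicing of the Xbp1 transcript was not analysed here. Atf4, which drives genes of amino acid supply under stress, was not called (-1.65 ± 0.89, adjusted p = 0.241), and its testosterone pools B and C lay at 92 and 84.1, beside 75.9 to 88.9 in placebo pools.

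For entry into the ER, 2 of 17 submandibular probes were called, both higher. Ssr4, of the translocon-associated complex, had 54.1, 47.1 and 43 with testosterone, against 33.2, 22.9 and 29.4 with placebo. The groups did not overlap, and the change was 0.76 ± 0.17 (adjusted p = 0.00645). Sec11a, a catalytic subunit of the signal peptidase, rose by 0.52 ± 0.11 (adjusted p = 0.00586), a call that ended with the gland fitted alone (0.0879). The channel subunit Sec61a1 was at -0.27 ± 0.29 and the complex members Ssr2 and Srp54a at 0.16 ± 0.13 and 0.15 ± 0.13, none called. Among the lectin chaperones, Calr had 18.3, 17.9 and 21.2, against 14, 14.2 and 14.8. The groups did not overlap and the change was 0.41 ± 0.12 (adjusted p = 0.0276), but the call ended without any 1 of 5 submandibular pools (all but testosterone pool B), with an adjusted p of up to 0.108. It also ended with the gland fitted alone (0.0894) and with quantile normalization over all arrays (0.0991) or within glands (0.124). Canx, the membrane-bound lectin chaperone, had changes of -0.02 ± 0.18 and 0.01 ± 0.19 at its brighter and dimmer probe, and neither was called.

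For exit from the ER, Sec23b and Sec24d, inner coat proteins of COPII vesicles, rose by 0.61 ± 0.17 and 0.57 ± 0.15 in the submandibular gland. Both calls ended without placebo pool B (adjusted p = 0.112 and 0.0811), without testosterone pool A (0.101 and 0.099) and with the gland fitted alone (0.156 and 0.136). Tmed6, of the p24 family of cargo receptors, had 1.15, 1.03 and 1.11 with testosterone, against 0.336, 0.384 and 0.397 with placebo. The probe was dim but the groups were far apart (1.22 ± 0.15, adjusted p = 2.39e-05). Its relative Tmed10 and the COPI subunit Cope rose by 0.41 ± 0.11 and 0.43 ± 0.12. Both calls ended without placebo pool B (adjusted p = 0.0988 and 0.116), without testosterone pool A (0.08 and 0.0866) and without testosterone pool C (0.0566 and 0.0509), and that of Tmed10 also without placebo pool C (0.0676). With the gland fitted alone neither was called (0.115 and 0.097). Copz2, another COPI subunit, was 1 of the 2 members called lower, with 5.5, 7.06 and 6.1 against 8.23, 9.94 and 12.8 (-0.70 ± 0.15, adjusted p = 0.00512, and 0.0873 with the gland fitted alone).

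The 5 higher and 1 lower calls among the 44 cytosolic and mitochondrial chaperone probes stand beside 8.54% and 5.25% of all tested probes in this gland. Hspb8 and Hspb2, small heat shock proteins, rose by 0.71 ± 0.19 and 0.75 ± 0.15. The call of Hspb8 ended without placebo pool A (adjusted p = 0.0689), and with the gland fitted alone both calls ended (0.109 and 0.0607). Dnaja2, an Hsp70 co-chaperone, rose by 0.57 ± 0.14, a call that ended without placebo pool A (0.0543) or testosterone pool C (0.051). This call also ended with the gland fitted alone (0.118) and with array weights (0.0541). Dnajc12, a DnaJ protein that works with the aromatic amino acid hydroxylases, had 2.68, 3.45 and 3.23 with testosterone, against 5.33, 5.62 and 6.53 with placebo. All testosterone pools were below all placebo pools (-0.87 ± 0.16, adjusted p = 0.00143). Ddit3, Dnajc12, Ero1a, Hsp90b1, Pdia4, Ssr4 and Tmed6 are the 7 of 24 members that were called in the submandibular gland under every alternative run.

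Plasma and B cell markers (10 of 20 measured) summed to 29.1 to 35.9 in submandibular testosterone pools and 34 to 36.8 in placebo pools, and macrophage markers to 24.6 to 27.4, against 22.1 to 36.3, and both overlapped. Fibroblast markers (5 of 6 measured) summed to 48.7 to 57.2, against 39.1 to 48.1. Pdgfra made most of that difference (12.6 ± 0.795, against 4.51 ± 3.52, SD, n = 3 each), and the dim Col1a1 and Col1a2 rose by 0.93 and 0.97. The brighter Dcn (mean 21 against 20.7) and Lum (15.4 against 16.4) were not called. The tubule and acinar markers (4 of 10 measured) summed to 815 to 903, against 694 to 789, but did not move together. Egf had 273 ± 15.2, against 35.2 ± 2.53, and Smr2 83.3 ± 15, against 4.85 ± 0.313 (SD, n = 3 each). By contrast, Klk1b5 had 509 ± 54.4, against 687 ± 49.7, and Bhlha15 4.39 ± 1.1, against 7.75 ± 0.986, neither of them called. Lower with testosterone were the sums of sebocyte markers (11.7 to 18.4, against 22.4 to 29.6), skeletal muscle markers (3.21 to 3.81, against 4.38 to 11) and keratinocyte markers (3.73 to 5.2, against 5.55 to 6.43). The sebocyte fall lay mostly in Scd1 (mean 8.38 against 20.2), while Plin2 (4.22 against 3.34) and Krt17 (0.635 against 0.413) went the other way. The keratinocyte fall lay mostly in Krt10 (mean 2.44 against 4.09), while Krt1 (0.298 against 0.15) and Sprr1a (0.313 against 0.163) went the other way. The part of these cells in the changes above was not tested.

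**Figure D3:**
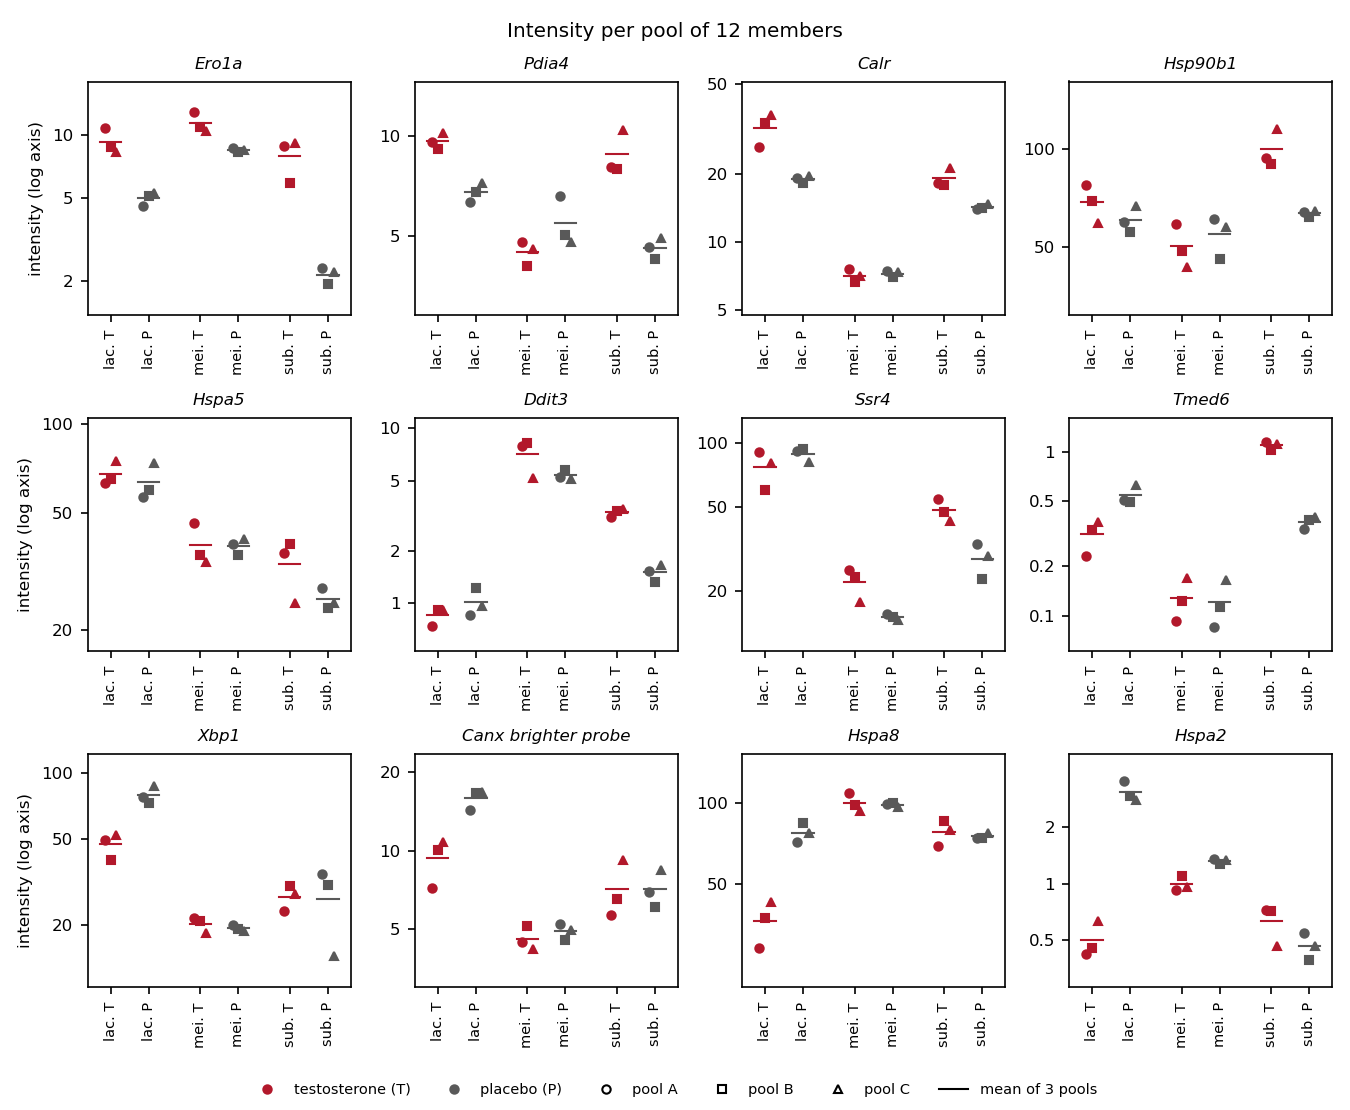
Intensity of 12 members in each pool, on log axes, for the lacrimal (lac.), meibomian (mei.) and submandibular (sub.) gland, with testosterone (T) left of placebo (P), a symbol for each pool and a line at the mean of 3 pools. Ero1a, Pdia4 and Calr are higher with testosterone in the lacrimal and submandibular glands, Hsp90b1, Ddit3, Ssr4 and Tmed6 are higher in the submandibular gland, and Xbp1, Canx, Hspa8 and Hspa2 are lower in the lacrimal gland.

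In the lacrimal gland, 24 of the 108 tested members were called, 10 higher and 14 lower with testosterone. This was 22.2% of the members, against 28.1% of all tested probes, and by direction 9.26% against 13.3% higher and 13% against 14.8% lower. The median change was -0.11, against -0.07 over all tested probes. The shares of members called were thus below those of all tested probes. All testosterone pools lay above all placebo pools for 14.8% of the members, against 18.1% of all tested probes. They lay below for 25.9%, against 21.3%. Of the probes with ER and early secretory roles 5 of 57 were called each way, and of the cytosolic and mitochondrial chaperones 5 of 44 were called higher and 8 lower.

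Disulfide formation had 3 of its 7 lacrimal probes called, all higher. Ero1a had 10.7, 8.7 and 8.25 in lacrimal testosterone pools A, B and C, against 4.58, 5.08 and 5.27 in placebo pools. The groups did not overlap, and Ero1a rose by 0.86 ± 0.15 (adjusted p = 4.03e-04). Pdia4 had 9.56, 9.14 and 10.2, against 6.36, 6.79 and 7.21, again without overlap (0.49 ± 0.13, adjusted p = 0.0108, and 0.0603 with array weights). Pdia5 rose by 0.54 ± 0.15, a call that ended without testosterone pool C (adjusted p = 0.0554). P4hb was not called (-0.42 ± 0.29, adjusted p = 0.31), with 125, 114 and 122 with testosterone, against 175, 156 and 153 with placebo. Its groups did not overlap in this gland, and it was called lower with the gland fitted alone (adjusted p = 0.0486) and with the pool letter as a block (0.0363).

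The 2 lectin chaperones moved in opposite directions in the lacrimal gland. Calr, which binds glycoproteins in the ER lumen, had 26.2, 33.5 and 36.6 with testosterone, against 19.2, 18.2 and 19.7 with placebo. All testosterone pools were higher (0.74 ± 0.12, adjusted p = 1.55e-04). Canx, its membrane-bound relative, had 7.22, 10.1 and 10.8 at the brighter probe with testosterone, against 14.3, 16.6 and 16.8 with placebo. All testosterone pools were lower at both probes, with changes of -0.77 ± 0.18 and -0.81 ± 0.19 (adjusted p = 0.00424 and 0.00395). Rpn2, a subunit of the oligosaccharyl transferase, was not called (-0.19 ± 0.12).

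Xbp1 had 49.5, 40.1 and 52.1 in lacrimal testosterone pools, against 77.9, 73.1 and 87.8 in placebo pools. The groups did not overlap and Xbp1 fell by 0.75 on the log2 scale (SE 0.23, adjusted p = 0.0217), a call that ended without testosterone pool B or placebo pool C (up to 0.0892) and with quantile normalization over all arrays (0.0562). Atf4 had 127, 104 and 107, against 196, 179 and 198, and was not called (-0.76 ± 0.89). It was called lower with the gland fitted alone (adjusted p = 0.00342) and without submandibular testosterone pool A, the pool at 2.12 (2.13e-04). Ddit3 was not called (-0.20 ± 0.16). The ER chaperones Hspa5 and Hsp90b1 were not called, at 0.10 ± 0.17 and 0.17 ± 0.15, nor were Dnajb9 and Dnajc3, at -0.11 ± 0.15 and 0.09 ± 0.17. Hspa5 had 63, 64.9 and 75 with testosterone, against 56.4, 59.8 and 73.8 with placebo. In this class 1 of 9 probes was called, the brighter probe of Dnajc1, an ER co-chaperone, which was lower (-0.67 ± 0.20) and whose call ended without placebo pool A (adjusted p = 0.0974). Its dimmer probe was not called (-0.13 ± 0.16).

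None of the 17 lacrimal probes of signal recognition, translocon and signal peptidase was called, nor any of the 5 COPII probes, with changes from -0.46 to 0.44 and from -0.18 to 0.12. Ssr1 had 45.4, 40.7 and 41.9 with testosterone, against 31.1, 29.4 and 33.8 with placebo, without overlap. It was called higher (0.44) with the gland fitted alone (adjusted p = 0.03) and without submandibular testosterone pool A, where its value was 1.33 (0.0047). Hyou1, Sec61a1 and Pdia6 each had their lowest value in pool A of both groups, as in Sec61a1 with 14.9, 23.5 and 36, against 12.9, 22.2 and 25.8. Of the COPI coat and cargo receptors, Copb2, a coat subunit, had 73.4, 75.8 and 59.2, against 52.9, 35.7 and 44.4. It rose without overlap of the groups (0.66 ± 0.15, adjusted p = 0.00413), whereas the coat subunit Copz1 fell by 0.57 (SE 0.15) and the dim Tmed6 fell by 0.57 (SE 0.15). The call of Tmed6 ended with the gland fitted alone (adjusted p = 0.0717).

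The chaperonin, the ring that folds actin and tubulin, had 4 of 9 lacrimal probes called lower and 1 higher, with a median change of -0.50. Cct3 had 8.46, 7.21 and 6.46 with testosterone, against 12.7, 14.3 and 14.1 with placebo, and Cct7 had 7.57, 8.36 and 8.2, against 11.7, 14.9 and 15.3. Neither gene's groups overlapped, and the changes were -0.88 ± 0.14 and -0.77 ± 0.13 (adjusted p = 1.09e-04 and 2.02e-04). Cct5 and the brighter probe of Cct4 were lower by smaller amounts (-0.50 ± 0.17 and -0.54 ± 0.16), and both calls ended without placebo pool B or C or testosterone pool B or C (adjusted p up to 0.124 and 0.0802). The dimmer probe of Cct4 was not called (-0.29 ± 0.14), nor was Cct2 (-0.52 ± 0.19, adjusted p = 0.0542). Cct6b, a testis-type subunit, was the member called higher (0.47 ± 0.16), at intensities of 0.737 to 1.14 against 0.525 to 0.817 that overlapped. Its call ended without placebo pool A or C or testosterone pool A or B (adjusted p up to 0.148).

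The largest lacrimal changes were in the cytosolic Hsp70 family. Hspa2, an Hsp70 known from male germ cells, had 0.421, 0.45 and 0.63 with testosterone, against 3.54, 2.95 and 2.82 with placebo. The groups were far apart, and Hspa2 fell by 2.29 on the log2 scale (SE 0.16, adjusted p = 1.21e-08). Hspa8, the constitutive Hsp70, had 28.8, 37.2 and 43, against 71.4, 84.5 and 77.1, and fell by 1.11 (SE 0.13, adjusted p = 8.60e-06) with no overlap. Dnajc4, a DnaJ protein, had 2.19, 2.69 and 2.34, against 5.22, 5.37 and 4.86, and fell by 1.05 (SE 0.12, adjusted p = 4.61e-06). Hspb9, a testis-type small heat shock protein, moved the other way, with 24.8, 25.3 and 21.4 against 13.4, 14.7 and 15.6 (0.70 ± 0.11, adjusted p = 1.09e-04). Dnajb8, also known from testis, rose by 0.64 ± 0.13, and Hspa14, an Hsp70 of the ribosome-associated complex, by 0.54 ± 0.15, a call that ended without testosterone pool C (adjusted p = 0.0669). Hspe1, the partner of the mitochondrial chaperonin, had 50.9, 61.5 and 46, against 30, 32.6 and 40.1, and rose by 0.62 ± 0.15 (adjusted p = 0.0043). Hspd1, the chaperonin encoded beside it, was not called (-0.02 ± 0.19). Calr, Canx (both probes), Cct3, Cct7, Copb2, Copz1, Dnajb8, Dnajc4, Ero1a, Hspa2, Hspa8, Hspb9 and Hspe1 account for the 14 of 24 lacrimal probes that were called under every alternative run.

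Markers of other cells moved with testosterone in the lacrimal gland. Those of dividing cells (4 of 5 measured) summed to 18.4 to 30.8 with testosterone and 1.76 to 2.34 with placebo. Those of plasma and B cells (10 of 20 measured) summed to 101 to 109, against 68.2 to 78.5, mostly through Cd79a (0.51, called) and Jchain (0.46, not called), while Pou2af1 rose by 2.71, Irf4 fell by 0.75 and Ms4a1 was near the floor in both groups (0.199 ± 0.0996, against 0.26 ± 0.118, SD, n = 3 each). The acinar markers (6 of 6 measured) summed to 658 to 871, against 1202 to 1251. Fibroblast markers summed to 20.5 to 25.9, against 28 to 35.6, macrophage markers to 16.3 to 16.9, against 17.4 to 21.3, and keratinocyte markers to 3.27 to 4.13, against 2.25 to 2.7. The macrophage fall lay in Cd74 (mean 7.58 against 11), while Lyz2 had 8.68 against 7.79. The keratinocyte rise lay in Lor (mean 2.76 against 1.44), while Krt1 had 0.25 against 0.482. The part of these cells in the lacrimal changes was not tested.

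In the meibomian gland, 0 of the 108 tested members were called by limma, against 0.59% of all tested probes. An unadjusted p below 0.05 was found for 12 members, against 1058 of all 7463 tested probes. With the 6 meibomian arrays fitted alone, 0 members were called, against 2.43% of all tested probes higher and 0.871% lower. There 22 members had an unadjusted p below 0.05, against 2172 of all 7463. With array weights 18 members were called higher and 5 lower, against 19% and 7.7% of all tested probes. The median change was 0.12, against 0.06 over all tested probes, and -0.02 with quantile normalization. Changes ran from -0.36 (Hspa2) to 0.53 (Ssr4). Ssr4 had 25.1, 23.3 and 17.8 in testosterone pools, against 15.6, 15.2 and 14.6 in placebo pools. The groups did not overlap but the probe was not called (0.53 ± 0.17, adjusted p = 0.189). Such a lack of overlap was common here: 23.1% of the members and 23.7% of all tested probes were higher in all testosterone pools. The shares lower in all testosterone pools were 4.63% and 11.6%. Ero1a had 12.8, 10.9 and 10.4, against 8.66, 8.24 and 8.44 (0.42 ± 0.15, adjusted p = 0.239). Pdia4, which rose in the other glands, had 4.81, 4.07 and 4.57, against 6.59, 5.04 and 4.82 (-0.27 ± 0.13, adjusted p = 0.376). Hspa5 and Hsp90b1 were at -0.01 ± 0.17 and -0.13 ± 0.15.

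The lacrimal and submandibular testosterone effects come from separate arrays. In both glands 5 members were called higher: Calr, Ero1a, Hspe1, Pdia4 and Pdia5, which is 5 of 10 lacrimal and 5 of 22 submandibular rises, and 4.63% of the members, against 1.9% of all tested probes. Called lower in the lacrimal and higher in the submandibular gland were Cct3, Hspb2 and Tmed6 (2.78%, against 1.45%). None was called lower in both (0, against 1.38%) or higher in the lacrimal and lower in the submandibular gland (0, against 0.858%). The small heat shock protein Hspb2 had 0.23, 0.213 and 0.166 against 0.331, 0.411 and 0.271 in the lacrimal gland, and 0.672, 0.668 and 0.609 against 0.255, 0.276 and 0.434 in the submandibular gland. All these Hspb2 values are dim, and its lacrimal call (-0.44 ± 0.15) ended without placebo pool A or B or testosterone pool B or C (adjusted p up to 0.143) and with quantile normalization (0.247 over all arrays). The submandibular call of Cct3 (0.42 ± 0.14, adjusted p = 0.0498) was at the threshold and ended without any 1 of 13 arrays (up to 0.15). The submandibular call of Hspe1 (0.49 ± 0.15) ended without any 1 of the 6 submandibular pools (adjusted p up to 0.101).

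**Figure D4:**
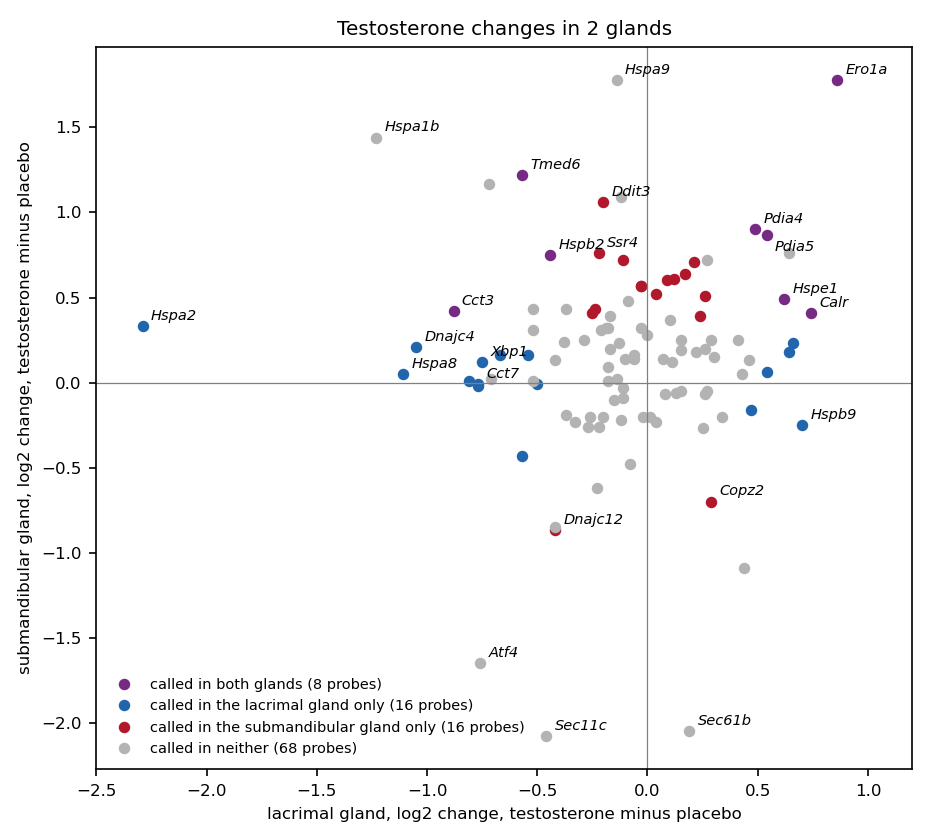
Log2 change, testosterone minus placebo, of each of the 108 tested probes in the lacrimal gland (horizontal) and in the submandibular gland (vertical), coloured by where it was called, which does not show that the glands differ. Ero1a, Pdia4, Pdia5, Calr and Hspe1 lie at the upper right, and Tmed6, Hspb2 and Cct3 at the upper left.

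The difference between glands in the effect of testosterone was tested directly, with each gland's arrays entering more than 1 of the 3 differences. For lacrimal minus submandibular, 25 members were called, 2 positive and 23 negative, against 24% of all tested probes (10.3% positive and 13.8% negative). With quantile normalization over all arrays, 5 were positive and 18 negative. Of the 57 probes with ER and early secretory roles, 13 were negative and 1 positive. For lacrimal minus meibomian, 13 members were called, 3 positive and 10 negative, against 17.6% (6.99% and 10.6%), and with quantile normalization 7 were positive and 7 negative. For meibomian minus submandibular, 10 were called, 3 positive and 7 negative, against 7.4% (3.4% and 3.99%). Hspa5 was not called in any of these differences.

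The lacrimal response of Ero1a minus the submandibular response was -0.92 ± 0.21 (adjusted p = 0.00498), although Ero1a rose in both glands. Ddit3 and Tmed6 differed by -1.26 ± 0.23 and -1.79 ± 0.21 between these glands (adjusted p = 7.65e-04 and 8.32e-06). Hsp90b1 was not called for this difference (-0.47 ± 0.21, adjusted p = 0.122). Calr was not called either (0.32 ± 0.17, adjusted p = 0.176), nor was Pdia4 (-0.40 ± 0.19, adjusted p = 0.141).

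The placebo glands show the levels without androgen. The 3 comparisons share placebo arrays. Among the members 47 of 108 were called higher in the placebo lacrimal gland than in both other glands (43.5%, against 18% of all tested probes). This share was not taken among the brighter probes alone. The meibomian gland was highest for 21 (19.4%, against 22.6%) and the submandibular gland for 2 (1.85%, against 9.59%), namely Copz2 and Sec63. The roles divided: of the 57 probes with ER and early secretory roles, the highest gland was the lacrimal for 37, the meibomian for 4 and the submandibular for 2, whereas the 44 cytosolic and mitochondrial chaperones were split into 8 lacrimal, 15 meibomian and 0 submandibular probes. For lacrimal minus meibomian, 87 members were called (all tested probes 67.9%), 63 higher in the lacrimal gland (38.7%) and 24 lower (29.2%). For lacrimal minus submandibular, 66 were called (44%), 57 higher in the lacrimal gland (26.2%) and 9 lower (17.8%). For meibomian minus submandibular, 64 were called (66.6%), 27 higher in the meibomian gland (30.6%) and 37 lower (36%). Levels between glands may include differences between arrays. With quantile normalization over all arrays, lacrimal minus meibomian gave 58 higher and 26 lower. Lacrimal minus submandibular then gave 43 and 11, and meibomian minus submandibular 26 and 40.

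The largest lacrimal over meibomian differences were in co-chaperones, signal peptidase and coat proteins. Dnajc3 had 24.5, 26.5 and 27.1 in lacrimal placebo pools, against 2.9, 3.21 and 3.36 in meibomian placebo pools, a log2 difference of 2.98 ± 0.17. Spcs2, a signal peptidase subunit, had 161, 160 and 185, against 24.7, 23 and 24.3 (2.80 ± 0.13). P4hb and Sec24d were higher by 2.57 ± 0.29 and 2.60 ± 0.15. Xbp1 had 77.9, 73.1 and 87.8 in the lacrimal gland, above the 14.5 to 34.5 of the submandibular and the 18.9 to 20.1 of the meibomian placebo pools, and the log2 difference from the submandibular gland was 1.67 ± 0.23. Hspa5 was highest in the lacrimal gland as well (lacrimal pools 56.4, 59.8 and 73.8, meibomian pools 39, 36 and 40.7, submandibular pools 27.8, 23.7 and 24.7). Sec63, a partner of the channel, was an exception, with 2.24, 1.32 and 1.65 in the lacrimal gland, against 3.35, 6.77 and 6.84 in the submandibular gland (-1.57 ± 0.26).

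Of the 13 cytosolic and nuclear heat shock probes, 8 were highest in the placebo meibomian gland. Hspb1, a small heat shock protein abundant in stratified epithelium and muscle, had 0.98, 1.19 and 0.936 in the lacrimal gland, against 45.3, 35.1 and 42.4 in the meibomian gland, a log2 difference of -5.08 ± 0.21. Hspb8 had 1.02, 0.971 and 0.697, against 24.1, 21.5 and 23.1 (-4.44 ± 0.19). The meibomian pools lay more than 10-fold above the lacrimal pools in both genes. Hspa1a differed by -3.01 ± 0.64, with the uncertainty about its near-identical copy. Ddit3 was also highest in the meibomian gland, with 5.24, 5.76 and 5.14 there, 0.856, 1.22 and 0.973 in lacrimal pools and 1.54, 1.32 and 1.65 in submandibular pools. Skeletal muscle and keratinocyte markers summed to 174 to 215 and 186 to 226 in the meibomian placebo pools, against at most 11 and 6.43 in the other placebo pools. The keratinocyte sum lay in Sprr1a, Krt10 and Krt1 (meibomian placebo means 111, 57.1 and 41.1). Lor went the other way, with placebo means of 0.894 (meibomian), 1.44 (lacrimal) and 1.56 (submandibular). The part of muscle cells and keratinocytes in the heat shock levels was not tested.

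**Figure D5:**
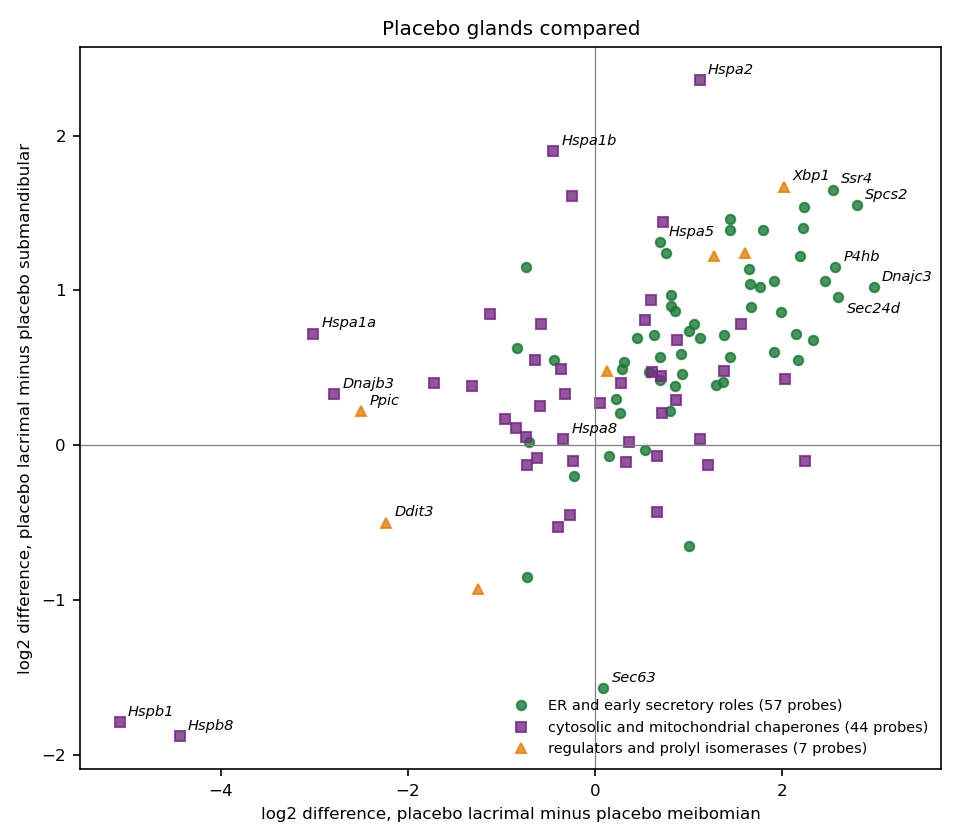
Log2 difference between placebo glands for each of the 108 tested probes, lacrimal minus meibomian (horizontal) and lacrimal minus submandibular (vertical), coloured by role, both axes using the same lacrimal placebo pools. Most ER and early secretory probes (green) lie at the upper right, higher in the lacrimal gland, while Hspb1 and Hspb8 lie at the lower left, at -5.08 and -4.44 against the meibomian gland.

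Of 90 listed genes of ER stress, ER-associated degradation, glycan processing, other ER folding and chaperone partners outside the chosen symbols, 64 had a probe and 62 were tested. In the submandibular gland 10 were called higher and 2 lower, with a median change of 0.11 and shares over all tested probes of 8.54% and 5.25%. Several of these rises were unstable: the calls of Vcp, Lman2, Tusc3 and Ufd1 ended in 21, 15, 15 and 3 of 29 alternatives. Manf, Sdf2l1 and Sdf2, ER proteins linked to the stress response, averaged 70.9 ± 9.11, 32.5 ± 3.29 and 14.1 ± 1.83 with testosterone, against 42.9 ± 5.89, 20 ± 1.09 and 8.34 ± 0.396 with placebo (SD, n = 3 each), rises of 0.73, 0.69 and 0.74. The stress sensor Ern1, which splices Xbp1, rose by 0.58 ± 0.18 (adjusted p = 0.046), a call that ended in 18 of 28 alternatives (up to 0.27). Man1a, which trims mannose from glycans, rose by 1.30 ± 0.17. Asns and Chac1, both known as targets of Atf4, fell by 0.52 and 1.42, the call of Chac1 ending with the gland fitted alone and without placebo pool C (adjusted p up to 0.0977). Of the 15 tested ER stress genes in this list, 4 were called higher and 2 lower, with a median change of 0.01. In the lacrimal gland 8 were called higher and 3 lower, with a median of 0.02, against 13.3% and 14.8% of all tested probes. The rises included Ufd1 and Syvn1 of ER-associated degradation (1.78 ± 0.15 and 0.85 ± 0.12), the cargo lectin Lman2 (1.54 ± 0.14) and the prolyl isomerase Fkbp11 (1.19 ± 0.14). Fkbp5, a co-chaperone of steroid receptors, had 20.8 ± 3.87 against 1.42 ± 0.173 in the lacrimal gland and 6.12 ± 1.35 against 0.951 ± 0.545 in the submandibular gland (SD, n = 3 each), and was called higher in both. Bag1, an Hsp70 partner, fell by 1.48 in the lacrimal gland. Asns fell there too, by 0.43 (adjusted p = 0.00822), a call that ended with the gland fitted alone (0.0504). In the meibomian gland 1 of 62 was called, Selenos of ER-associated degradation, with 104 ± 10.5 against 68.2 ± 1.57 (0.61 ± 0.12, adjusted p = 0.0245). That call ended in 8 of 29 alternatives, among them both quantile normalizations and leaving out any 1 meibomian pool except testosterone pool C (adjusted p up to 0.295).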

How the data were processed

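RNA of 18 pools was measured on 1-colour arrays. What the authors deposited is 1 linear intensity for each probe and pool. Array name, background correction and scaling: not given in the sources used here. Entries of -1 (37 to 118 probes per array) were read as no value, and other values below 0 (lowest -0.128) as 0. Values were taken as log2(intensity + 0.174), the offset being the 10th percentile of positive values. Probes needed at least 2 values per group and to lie above the 40th percentile on at least 3 arrays. This removed 146 probes with missing values and 2891 dim ones, so that 7463 were tested. Of the 10500 probes, 8983 had 1 gene symbol in GEO's platform annotation, 1 several and 1516 none.

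The test was limma 3.58.1 in R 4.3.3: 1 linear model over the 18 arrays with 6 group means (residual df 12), moderated with a trend in eBayes, and p-values adjusted by Benjamini-Hochberg over all tested probes. Probes of 1 gene were tested separately. Ppib lacked 1 and Ssr1 lacked 2 meibomian values, and these were left out of the fit. The number of arrays limits the precision. On simulated data with known changes, the fit was tested before use. Members, roles, lists and named genes were chosen with earlier results of these data known. Named were, per gland and role, up to 3 called members each way, the 6 largest rises and falls per gland, fixed regulators and ER chaperones, members called in several glands, the 6 largest differences per pair of glands, of the testosterone effect and of placebo levels, and up to 6 related genes per gland. Others named were chosen after their values were seen. Alternatives were each gland alone, other offsets, filters, quantile normalization, a robust variance model, array weights, a stricter threshold, -1 as 0, a block for the letter, and leaving out each array. Figures were drawn with matplotlib 3.10.9.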

Additional observations from a re-analysis of the deposited data

Results flagged for a closer look

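Each value here is a testosterone effect (log2) in 1 gland minus that in another, listed because limma called the difference itself (adjusted p below 0.05), taking the 6 largest per pair of glands.

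For lacrimal minus submandibular, Hspa1b differed by -2.68 ± 0.77 (adjusted p = 0.0182), with testosterone pool B of the submandibular gland at 175 beside 26.7 and 39.2, and still with an adjusted p of at most 0.0386 when any 1 array was left out. Hspa2 differed by -2.62 ± 0.23, Tmed6 by -1.79 ± 0.21, Cct3 by -1.31 ± 0.19, Ddit3 by -1.26 ± 0.23 and Dnajc4 by -1.26 ± 0.17. For lacrimal minus meibomian, Hspa2 differed by -1.92 ± 0.23, Cct3 by -1.15 ± 0.19, Hspa8 by -1.13 ± 0.19, Dnajc4 by -1.07 ± 0.17 and Cct7 by -0.83 ± 0.18. The dimmer probe of Canx differed by -0.98 ± 0.27, which ended without meibomian testosterone pool A (adjusted p = 0.051).

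For meibomian minus submandibular, Ero1a differed by -1.36 ± 0.21, Tmed6 by -1.18 ± 0.21, Pdia4 by -1.17 ± 0.19, Pdia5 by -0.96 ± 0.22 and Dnajc12 by 1.10 ± 0.22, Dnajc12 being lower with testosterone in the submandibular gland. Sec23b differed by -0.86 ± 0.24, which ended without meibomian placebo pool A or B, meibomian testosterone pool B or C, submandibular placebo pool B or submandibular testosterone pool A (adjusted p up to 0.0929).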

How the results depend on the processing

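No called change of a named member reversed under the alternatives run, while the meibomian median changed sign. At an adjusted p of 0.01 the calls were 15 for the lacrimal gland, 12 for the submandibular gland, and 14, 7 and 4 for the differences lacrimal minus submandibular, lacrimal minus meibomian and meibomian minus submandibular. With array weights they were 23 in the meibomian gland, where 19% of all tested probes were called higher and 7.7% lower. For lacrimal minus meibomian and meibomian minus submandibular they were then 25 and 19. With each gland fitted alone 9 were called in the submandibular gland. Quantile normalization, over all arrays or within glands, gave a meibomian median of -0.02. Leaving out 1 array gave 19 to 27 lacrimal, 16 to 28 submandibular and 0 to 1 meibomian calls (1 without testosterone pool C). The differences gave 16 to 26 calls for lacrimal minus submandibular (16 without lacrimal testosterone pool B), 8 to 17 for lacrimal minus meibomian (8 without lacrimal placebo pool B, meibomian placebo pool A or meibomian testosterone pool A) and 5 to 12 for meibomian minus submandibular (5 without meibomian placebo pool A, and 6 without meibomian placebo pool C, meibomian testosterone pool B or submandibular placebo pool B). The causes were not tested. Between placebo glands the counts stayed within 1.5 times.

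Pool letters were not taken to pair arrays, since residuals of same-letter pools correlated between -0.10 and 0.13 within glands (9 pairs). With the letter as a replicate block, 24 lacrimal (22 shared), 0 meibomian and 21 submandibular members (17 higher, 4 lower, 18 shared) were called. Among the named members, the block added calls of P4hb in the submandibular (adjusted p = 0.00292) and lacrimal gland (0.0363) and of Hyou1 in the submandibular gland (0.0221). It ended those of Tmed10 (0.0517), Cope (0.065), Dnajc3 (0.0509), Hspe1 (0.0708), Pdia3 (0.0788) and Cct3 (0.0659) in the submandibular gland. In the lacrimal gland it ended those of Cct4 (0.0575) and Hspb2 (0.0571). Among the related genes it ended the calls of Selenos in the meibomian gland (0.117) and, in the submandibular gland, of Ern1 (0.103), Lman2 (0.0569), Tusc3 (0.0556) and Vcp (0.0553). Every lacrimal array correlated best with its own letter (6 of 6), against 2 of 6 meibomian and 3 of 6 submandibular arrays. Differences between glands were not run with each gland fitted alone. No member change smaller than 0.39 was called within a gland, and spot background was not analysed here.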
